A study of Sus scrofa with 12 samples.

Results

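FBXO32 and TP53INP2 were described across the development of pig longissimus dorsi, the long back muscle. They are 2 of 6765 genes that the array's annotation names. All probe sets carrying either symbol were taken, which gave 2 probe sets for FBXO32, called the brighter and the dimmer here by their mean over the arrays, and 1 for TP53INP2. All 3 were among the 16166 probe sets that passed a filter on dim signals. Both genes were chosen by their measured intensities over the 4 stages of these same samples, so their levels are given as a description with no test.

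FBXO32, also called atrogin-1 or MAFbx, is the substrate-recognition subunit of a Skp1-Cullin-F-box (SCF) ubiquitin ligase that marks proteins for the proteasome. In rodent muscle it is a classic gene of wasting: FOXO transcription factors switch it on in fasting, disuse and glucocorticoid excess, and insulin and AKT signalling hold it down. TP53INP2, also called DOR, binds the ATG8 family proteins (the LC3 and GABARAP proteins) that coat forming autophagosomes, promotes their formation, and acts in the nucleus as a coactivator of the thyroid hormone receptor. The genes thus stand for the 2 main routes of protein breakdown in a muscle fibre, the ubiquitin-proteasome system and autophagy.

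The muscles came from Meishan pigs, a Chinese breed, with no genetic change or treatment, at 4 stages: fetuses at 65 days post coitus (65dpc), and pigs at 3, 60 and 120 days after birth. Each stage had 3 Affymetrix porcine arrays, labelled as biological replicates. Fetuses of 1 mother were counted as 1 individual, and the postnatal pigs were raised under ordinary commercial feeding and killed at a slaughterhouse. Sex, litter and time since the last meal were not given in the sources used here. An intensity is the brightness of a probe set as deposited, and log2 values are log2(intensity + 21.4).

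The log2 values of arrays of 1 stage correlated at 0.905 to 0.985 over the 16166 probe sets that passed the filter. Array medians of intensity lay between 49.1 and 52.6. The summed intensity of 8 measured muscle fibre markers of 12 listed was 21742 to 33536 on the fetal arrays and 42291 to 48551 on the 9 postnatal arrays, with no marker at 0. Fetal replicate 2 and 60-day replicate 1 stood apart from their stages on the principal component that carried 12.3% of the variance. In whole muscle, fewer cells of a type and less RNA per cell cannot be told apart.

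FBXO32 was marked by the spread between pigs of one age rather than by a level for each age. On the brighter probe set the 3 arrays of 65dpc read 184, 68.2 and 815. At 3 days they read 26.4, 61.2 and 2378, and at 60 days they read 176, 2488 and 625. At 120 days they read 137, 171 and 388. A single array was far above the others of its stage in the fetus (replicate 3), at 3 days (replicate 3) and at 60 days (replicate 2), and the 120-day arrays lay closest together.

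The highest array exceeded the lowest of the same stage 11.96-fold at 65dpc, 90.0-fold at 3 days, 14.2-fold at 60 days and 2.83-fold at 120 days. The lowest 3-day reading, 26.4 on replicate 1, lay at percentile 29.3 of its array, below the cut used by the filter on dim signals. The size of the 90.0-fold ratio thus rests on a reading near the floor. Replicate 2 of that stage, 61.2 at percentile 55.8, was also far below the 2378 of replicate 3. The mean of FBXO32 over the 3 fetal arrays was 356 ± 402 (SD, n = 3). After birth it was 822 ± 1348 at 3 days, 1096 ± 1226 at 60 days, and 232 ± 136 at 120 days (SD, n = 3 each). In the first 3 stages the SD was larger than the mean, and the arrays of every pair of stages overlapped.

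The dimmer FBXO32 probe set gave the same picture. It read 157, 79.2 and 729 before birth, 30.4, 60.0 and 2139 at 3 days, 182, 2169 and 555 at 60 days, and 130, 163 and 336 at 120 days. Over the 12 arrays the log2 values of both probe sets correlated at 0.999. They are separate readings of the same RNA extract, so their likeness speaks to the probes and not to differences between pigs.

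**Figure D1:**
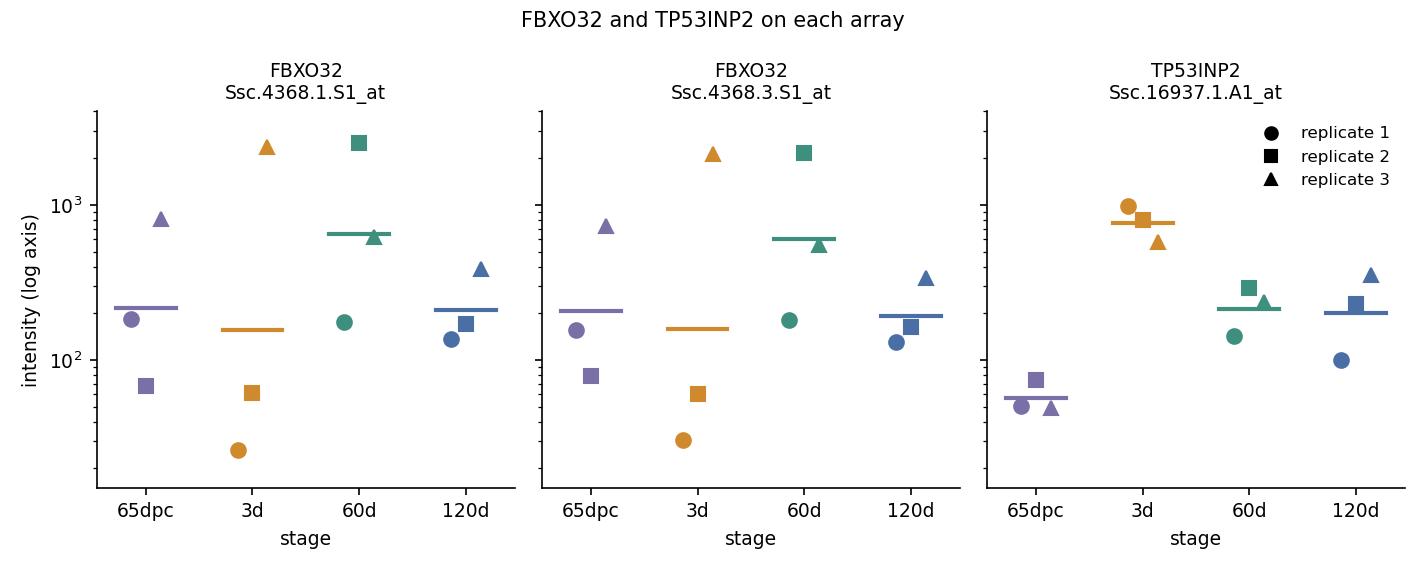
Intensity (log axis) of both FBXO32 probe sets and of TP53INP2 on each of the 12 arrays, by stage. Each symbol is 1 array, its shape gives the replicate number, and each line is the stage mean on the log2 scale. FBXO32 at 3 days spans 26.4 to 2378 on the brighter probe set, while all 3 TP53INP2 values at 3 days lie above every other array.

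The pooled within-stage SD of FBXO32 was 1.99 on the log2 scale for the brighter probe set and 1.89 for the dimmer. These ranked 6 and 8 from the highest among 16166 probe sets, whose median was 0.23 and whose 95th percentile was 0.57. The SD of the 4 stage means was smaller, 0.79 and 0.77, ranking 1140 and 1240. TP53INP2 had the opposite balance, with a within-stage SD of 0.53 (rank 1083) and an SD of stage means of 1.36 (rank 173).

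**Figure D2:**
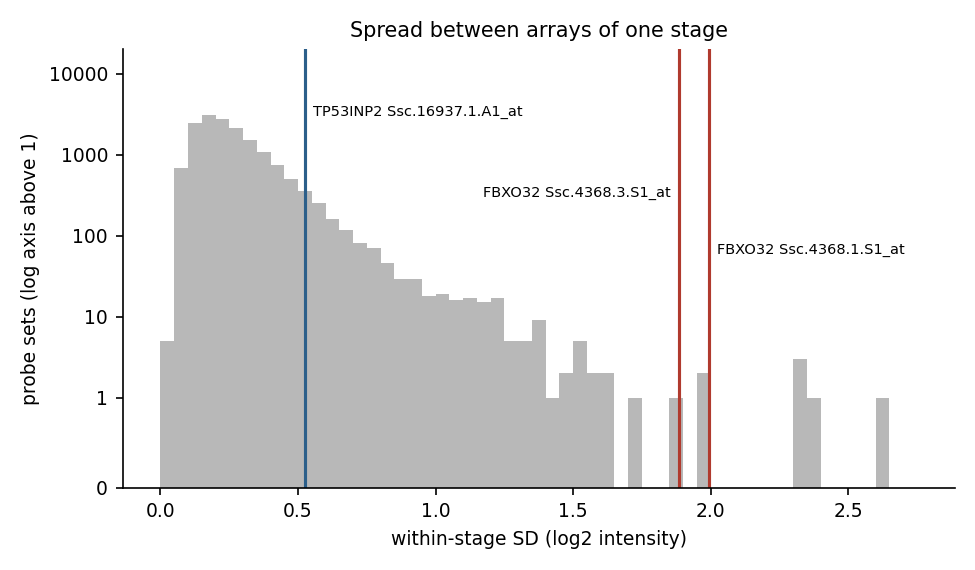
Number of probe sets (vertical axis, log above 1) by the SD of log2 intensity between arrays of one stage (horizontal axis), over 16166 probe sets. The FBXO32 lines at 1.89 and 1.99 stand in the sparse right tail, and the TP53INP2 line stands at 0.53.

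The log2 difference of FBXO32 on its brighter probe set, with the standard error (SE) of the fit, was -0.23 ± 1.32 for 3 days against the fetus and 1.69 ± 1.32 for 60 days against 3 days. It was -1.56 ± 1.32 for 120 days against 60 days and 0.13 ± 1.32 for 120 days against 3 days. Single arrays set these values. Without 3-day replicate 3 the difference between 3 days and the fetus was -1.98, and without 3-day replicate 1 it was 0.84. The difference between 60 and 3 days was 3.44 without 3-day replicate 3 and 0.62 without 3-day replicate 1. The difference between 120 and 60 days was -2.46 without 60-day replicate 1 and -0.62 without 60-day replicate 2. Between 120 and 3 days it was 1.88 without 3-day replicate 3 and -0.94 without 3-day replicate 1.

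TP53INP2 had a clear peak just after birth. The fetal arrays read 50.9, 74.9 and 48.7, and the 3-day arrays read 979.8, 796 and 581. It then read 142, 289 and 238 at 60 days and 100.2, 231 and 352 at 120 days. Every 3-day array was above every array of the other stages, every fetal array was below every postnatal one, and the 60-day and 120-day arrays overlapped.

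Fetal TP53INP2 averaged 58.2 ± 14.5 (SD, n = 3). The postnatal means were 785 ± 199.7 at 3 days, 223 ± 74.9 at 60 days and 228 ± 126 at 120 days (SD, n = 3 each). The log2 difference for 3 days against the fetus was 3.33 ± 0.37 (SE), which is 10.03-fold on the log2(intensity + 21.4) scale. It was -1.74 ± 0.37 for 60 days against 3 days, -0.07 ± 0.37 for 120 days against 60 days and -1.81 ± 0.37 for 120 days against 3 days. Against the fetus the difference was 1.58 ± 0.37 at 60 days and 1.52 ± 0.37 at 120 days.

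In order of mean level 65dpc was lowest and 3 days highest. Between them, 120 days was above 60 days by mean intensity and below it by mean log2 value, a gap smaller than the spread of either stage. Non-overlap by itself was common on these arrays. Of the 16166 probe sets that passed the filter, it held for 53.0% for 3 days against the fetus and 20.4% for 60 days against 3 days. It held for 13.9% for 120 days against 60 days and 31.7% for 120 days against 3 days. Against the fetus it held for 45.8% at 60 days and 60.7% at 120 days. Leaving out any 1 array kept the difference between 3 days and the fetus within 3.16 to 3.52.

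Between pigs of one age the 2 genes showed little relation. With each stage's mean removed, FBXO32 and TP53INP2 correlated at -0.02 over 12 arrays (Spearman 0.07), and at 0.10 without the 2 arrays farthest from the median of FBXO32. At 3 days the array with the highest FBXO32, replicate 3 at 2378, had the lowest TP53INP2 of its stage, 581. At 120 days replicate 3 was highest for both, 388 for FBXO32 and 352 for TP53INP2.

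The genes nearest to FBXO32 were found by the root mean square difference of log2 values over the 12 arrays, each gene centred on its own mean. These arrays share their stages and extracts, so likeness is a description and says nothing of shared function or control. The 5 nearest named genes were HMOX2 (a haem oxygenase, 0.91), GABARAPL1 (an ATG8 family protein of autophagosomes, 1.04), MRLN (myoregulin, a small inhibitor of the calcium pump of the sarcoplasmic reticulum, 1.11), RETREG1 (a receptor for autophagy of the endoplasmic reticulum, 1.16) and YPEL3 (1.16). HMOX2 read 115, 96.5 and 217 in the fetus, 112, 133 and 1031 at 3 days, 172, 1486 and 270.4 at 60 days, and 195, 194 and 264 at 120 days. GABARAPL1 read 222, 172 and 650.4 in the fetus, 111, 224 and 1014 at 3 days, 332, 650.0 and 318 at 60 days, and 214, 248 and 342 at 120 days. In each of the 4 stages both were highest on the array where FBXO32 was highest. Ranked by Pearson's r, 2 of the 5 nearest genes were the same, and by stage-centred difference 3 were.

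The genes nearest to TP53INP2 also had their highest stage mean at 3 days. They were PPIF (cyclophilin D, a regulator of the mitochondrial permeability pore, 0.46), FABP3 (a fatty acid carrier of muscle, 0.49), HSPB7 (a small heat-shock protein of muscle, 0.52), CPT1B (the enzyme that admits long-chain fatty acids to mitochondria, 0.55) and BAG3 (a co-chaperone of selective autophagy, 0.56). PPIF read 62.0, 55.3 and 74.7 in the fetus, 655, 557 and 285 at 3 days, 137, 157 and 193 at 60 days, and 162, 153 and 243 at 120 days. CPT1B read 93.3, 68.7 and 86.9 in the fetus, 646, 739 and 700.1 at 3 days, 166, 380.3 and 178 at 60 days, and 134, 112 and 158 at 120 days. As with TP53INP2, all 3-day arrays of both genes were above those of the fetus. Only PPIF was also among the 5 nearest by Pearson's r, and none was by stage-centred difference.

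**Figure D3:**
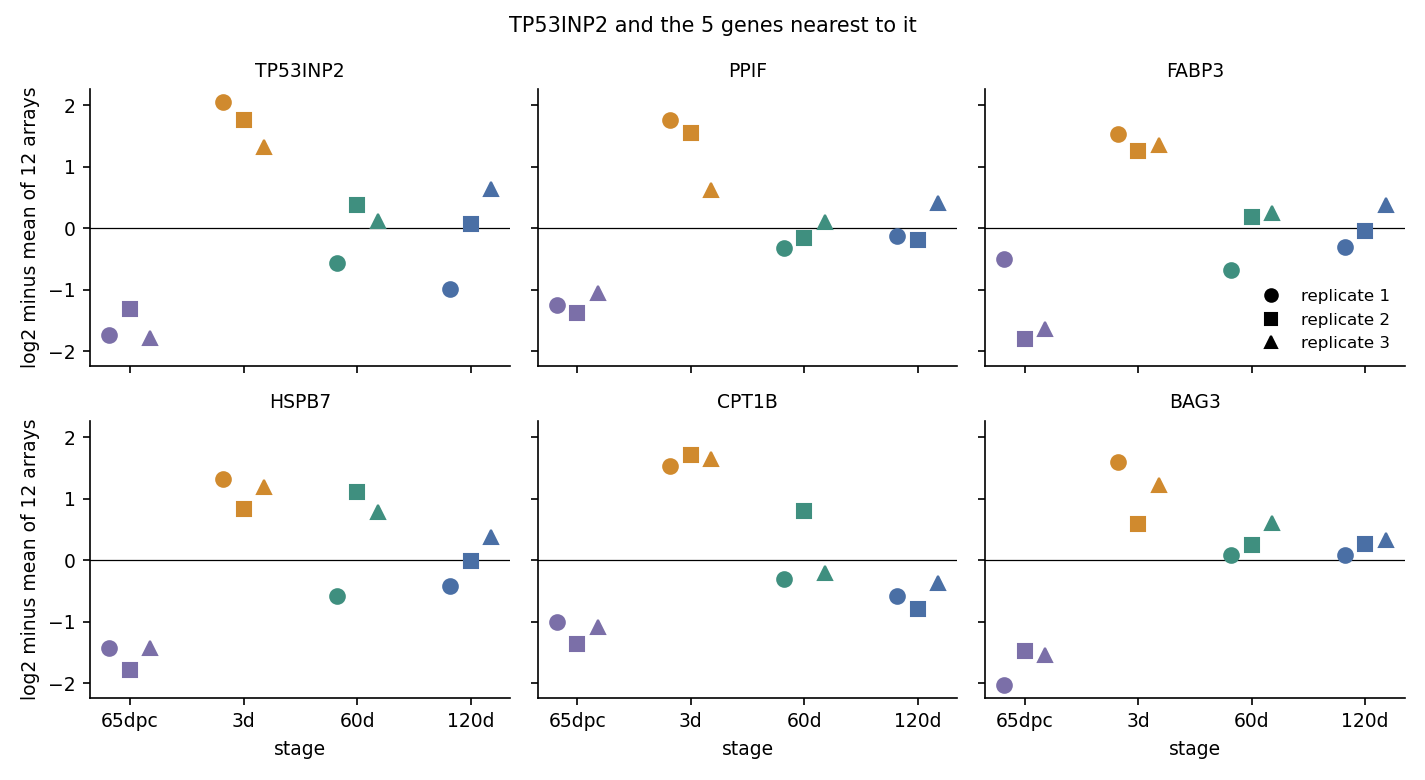
Log2 intensity minus the mean of 12 arrays (vertical axis) by stage for TP53INP2 and its 5 nearest genes. Each symbol is 1 array and its shape gives the replicate number. All 3 fetal arrays lie below the line at 0 in every panel, and all 3 arrays at 3 days lie above it.

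Because FBXO32 varied so much between pigs of one age, the genes of its pathways were set against it with each stage's mean removed, a choice made after seeing the data. Over the 128 measured genes of 10 pathway lists the median r with FBXO32 was 0.52, against 0.16 over the 5635 other genes. An r of 0.8 or more was found for 22 of the 128 (17.2%), against a background of 4.89% of all 5764 genes. An r of -0.8 or less was found for 3 (2.34%), against 3.07%. These 3 were TRIM55 (-0.91), MSTN (-0.85) and PRKAA2 (-0.85). All the pathway genes share 12 arrays with FBXO32 and are not independent of each other.

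The ATG8 family and its conjugation enzymes had the highest median of the 10 lists, 0.75, with 5 of 12 genes at 0.8 or more. These 5 were the ATG8 proteins GABARAPL1 (0.95), MAP1LC3A (0.90), MAP1LC3B (0.86), GABARAPL2 (0.83) and GABARAP (0.80). MAP1LC3B read 583, 462 and 727 in the fetus, 612, 716 and 1331 at 3 days, 570.1, 2513 and 1080 at 60 days, and 933, 853 and 1447 at 120 days. Its highest array was that of FBXO32 in all 4 stages, which was so for 22 of the 128 pathway genes (17.2%) against a background of 6.19%. The other MAP1LC3B probe set was also highest there at 3, 60 and 120 days. In the fetus it read 335, 380 and 319, lowest on the array where FBXO32 was highest.

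Among autophagy receptors and mitophagy genes the median was 0.60 with 3 of 10 at 0.8 or more. SQSTM1, the p62 receptor that ties ubiquitin-marked cargo to ATG8 proteins, had an r of 0.93. It read 626, 775 and 1826 in the fetus, 943, 1083 and 2664 at 3 days, 1568, 3806 and 2226 at 60 days, and 2204, 2199 and 2998 at 120 days. It too was highest on the same array as FBXO32 in every stage. WIPI2, which marks the growing autophagosome membrane, had an r of 0.94, in an initiation list with a median of 0.60 and 1 of 9 genes at 0.8 or more. The lysosome list had a median of 0.59 with 5 of 27.

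Lists of upstream regulators had lower medians. In the insulin, AKT, mTOR and FOXO list the median was 0.18 and 0 of 16 reached 0.8, while PRKAA2 was at -0.85. FOXO1, a factor that drives FBXO32 in rodents, had an r of 0.78. In the same list FOXO3 was at -0.07 and AKT1 at -0.03. In the list of glucocorticoid, myostatin and inflammatory regulators the median was 0.39, and 3 of 16 were at 0.8 or more. They were the glucocorticoid targets FKBP5 (0.83) and KLF15 (0.80), and TNFRSF1A (0.82). At 120 days KLF15 read 330, 371 and 206, lowest on the array highest for FBXO32. Of the other glucocorticoid genes in that list, TSC22D3 had an r of 0.72 and HSD11B1 0.70. The r was only 0.26 for KLF9, 0.14 for PER1 and 0.01 for the glucocorticoid receptor NR3C1. MSTN, which encodes myostatin, the restraint on muscle growth, ran the other way at -0.85. It read 537, 1136 and 385 in the fetus, 80.6, 65.1 and 14.6 at 3 days, 257, 26.1 and 160 at 60 days, and 238, 248 and 282 at 120 days. MSTN was lowest on the array highest for FBXO32 in the first 3 stages and highest there at 120 days.

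Among the other wasting genes the median was 0.64 and 3 of 17 reached 0.8. The stress gene GADD45A had an r of 0.91 and read 177, 149 and 2814 on the 3-day arrays. Among the other muscle ligases and enzymes the median was 0.35, with 1 of 8 at 0.8 or more (MUL1, 0.94) and 1 at -0.8 or less (TRIM55, -0.91). The SCF core and FBXO32 targets had a median of -0.26, with 1 of 10 at 0.8 or more, DES (0.81), which was listed as a target. MYOD1, a myogenic factor that FBXO32 marks for breakdown in mouse cells, had an r of -0.67 and was the 1 pathway gene lowest in every stage on the array where FBXO32 was highest. That pattern thus held for 0.78% of the pathway genes, below the background of 3.75%. Without 3-day replicate 3 and 60-day replicate 2, r was 0.90 for GABARAPL1, 0.88 for SQSTM1, -0.81 for MSTN and -0.45 for MYOD1. It fell below 0.8 for TNFRSF1A (0.79), GABARAP (0.75), FKBP5 (0.73), KLF15 (0.72) and DES (0.48), and FOXO1 was at 0.68. TRIM55 was then at -0.79 and PRKAA2 at -0.62.

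**Figure D4:**
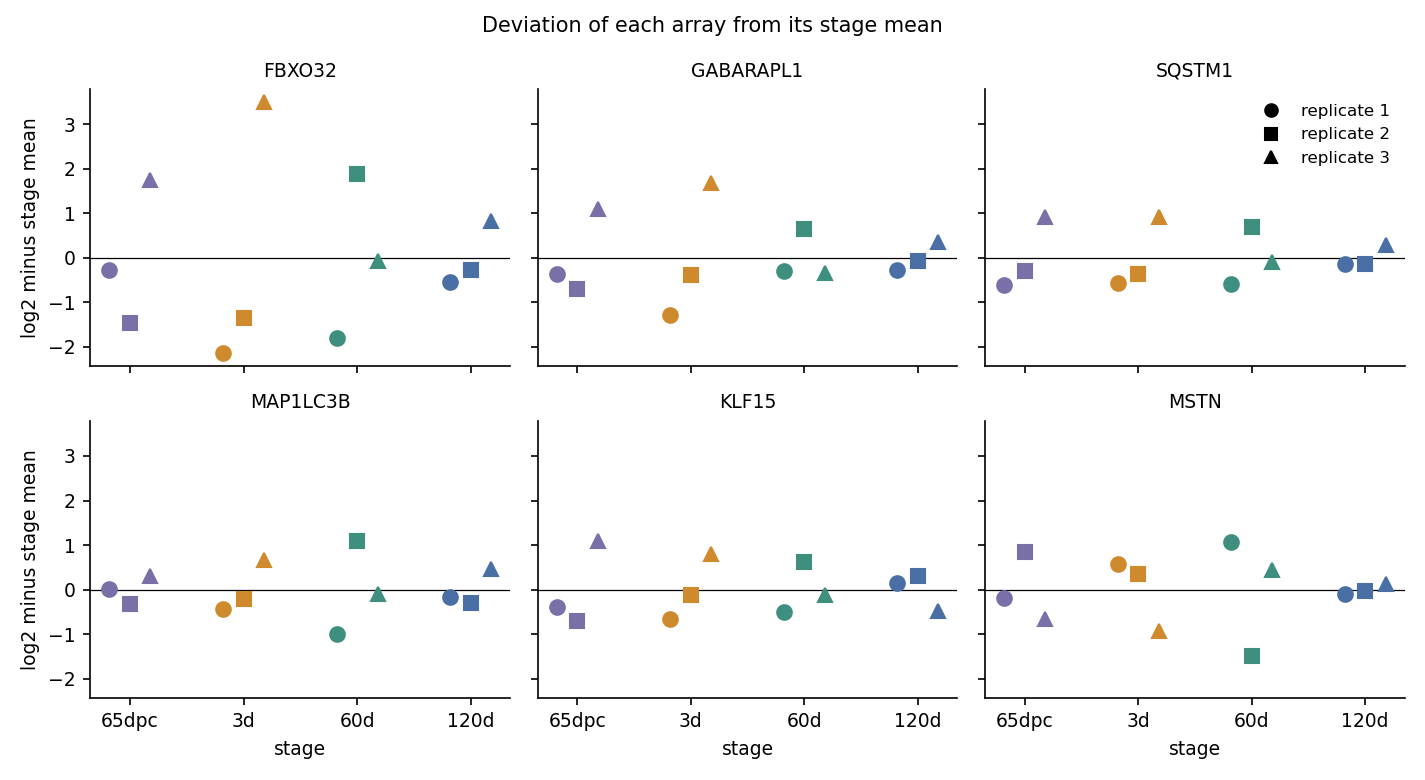
Log2 intensity with the stage mean removed (vertical axes) by stage (horizontal axes) for FBXO32, GABARAPL1, SQSTM1, MAP1LC3B, KLF15 and MSTN on the 12 arrays. Each symbol is 1 array and its shape gives the replicate number. GABARAPL1 (r = 0.95 with FBXO32) and SQSTM1 (r = 0.93) are highest in every stage on the array where FBXO32 is highest. MSTN (r = -0.85) is lowest there in 3 stages.

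**Figure D5:**
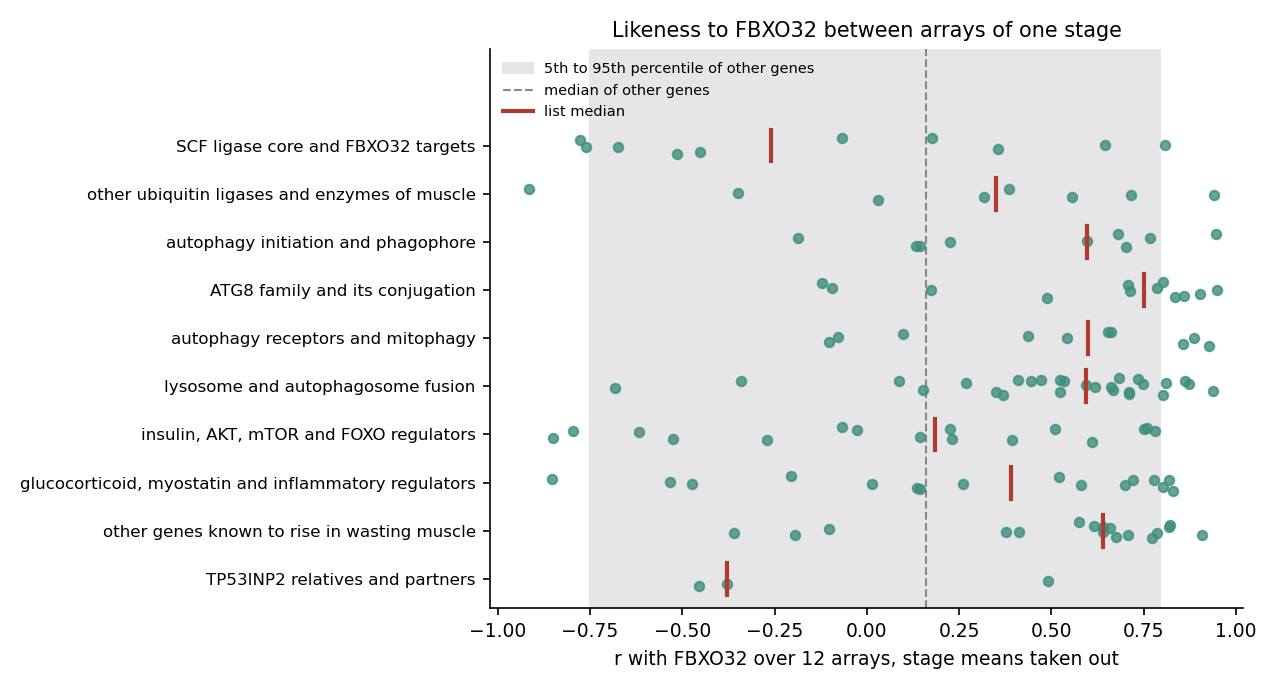
Stage-centred r with FBXO32 (horizontal axis) for the measured genes of each pathway list, each point a gene. The ATG8 family has the highest median, 0.75, and the median over 5635 other genes is 0.16.

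Other measures moved with FBXO32 on the same arrays. The summed intensity of 5 measured immune markers of 8 listed was 177, 200.3 and 1391 in the fetus, 309, 333 and 784 at 3 days, 366, 412 and 487 at 60 days, and 421, 318 and 645 at 120 days, with no marker at 0. It was highest on the FBXO32-highest array in 3 stages and not at 60 days. The macrophage receptor CD163 was the largest part of that sum on those 4 arrays, at 868 on fetal replicate 3, 603 on 3-day replicate 3, 224 on 60-day replicate 2 and 342 on 120-day replicate 3. The third principal component, with 10.5% of the variance, was lowest on the FBXO32-highest array of every stage. The ratio of 3′ to 5′ actin signal, a sign of RNA integrity, was lowest on that array at 65dpc, 3 days and 120 days. It read 2.64, 2.39 and 2.32 in the fetus, 4.69, 3.56 and 2.58 at 3 days, 6.18, 5.27 and 3.85 at 60 days, and 5.10, 5.96 and 4.17 at 120 days. The median stage-centred r with FBXO32 was 0.55 over the 5 immune markers. It was -0.68 over 5 fibroblast markers of 7 listed, -0.44 over 4 adipocyte markers of 6, -0.40 over 8 muscle fibre markers and -0.40 over 5 endothelial markers of 5. The summed fibroblast markers read 8162, 12840 and 9066 in the fetus, 4860, 4436 and 3236 at 3 days, 6068, 3271 and 4104 at 60 days, and 5239, 3475 and 4605 at 120 days. They were lowest on the FBXO32-highest array at 3 and 60 days only, and no measured marker was at 0. The part of all these measures in the spread of FBXO32 was not tested.

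With the stage means removed, TP53INP2 had few genes running with it. The median r over the 128 pathway genes was -0.02, 0 reached 0.8, against a background of 0.104%, and 1 was at -0.8 or less (0.78%, against 0.104%). It was FST, which encodes follistatin, an inhibitor of myostatin, with an r of -0.86, and -0.81 without 120-day replicates 1 and 3. FST read 409, 312 and 499 in the fetus, 108, 160.5 and 140.1 at 3 days, 149, 51.1 and 105 at 60 days, and 146, 90.7 and 62.4 at 120 days.

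Between stages, the genes around FBXO32 and TP53INP2 were tested with limma's moderated test with Benjamini-Hochberg adjustment over all 16166 probe sets, calling an adjusted p under 0.05. For 3 days against the fetus 42.9% of all probe sets were called. Of the 128 pathway genes 23 rose and 19 fell, 17.97% and 14.8%, against 22.7% and 19.0% of all 5765 genes, so the pathway shares were below the background. The median log2 difference was 0.19 for pathway genes and 0.07 for all genes. Centring on hybridization controls instead moved the median of all probe sets to -0.28 and the pathway counts to 12 higher and 32 lower, so directions here are relative to the bulk of genes on the array.

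Of the SCF core and FBXO32 targets, 2 of 10 rose and 1 fell at 3 days. CDC34, a ubiquitin-conjugating enzyme that works with SCF ligases, rose by 1.71 ± 0.21 (log2, SE; adjusted p = 8.2e-05). UBE2D2, another such enzyme, rose by 0.48 (adjusted p = 0.032), a call lost under 9 of 23 alternatives, and of its other probe sets 1 was called higher, by 1.01, and 1, at 0.18, did not pass. VIM, the intermediate filament vimentin, fell by 1.45 (adjusted p = 0.00013), and the summed fibroblast markers were also lower at 3 days, 3236 to 4860 against 8162 to 12840 in the fetus. The scaffold CUL1 differed by -0.13 ± 0.19 and MYOD1 by -0.64 ± 0.34, and neither passed the test. Of the other muscle ligases and enzymes 2 of 8 rose and 2 fell. UBE2B, a conjugating enzyme, rose by 1.16 and the ligase STUB1 by 1.03. UBE4B fell by 0.54, a call lost under 8 of 23 alternatives. FBXO31, another F-box protein, fell by 0.73, but its other probe set was called higher, by 0.53. TRIM63 (MuRF1), the usual companion of FBXO32 in wasting, had no probe set named here. The same held for SKP1, RBX1, EIF3F, FBXO30, FBXO40, ULK1, VMP1, BNIP3, CTSL and TP53INP1.

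None of the 5 ATG8 proteins measured, the binding partners of TP53INP2, passed the test at 3 days against the fetus. Of 12 genes in their list 2 rose and 2 fell, all 4 of them ATG4 proteases that process ATG8 proteins. ATG4D rose by 0.95 and ATG4A by 0.48, while ATG4C fell by 0.72 and ATG4B by 0.45. The ATG4A call was lost under 12 of 22 alternatives and the ATG4B call under 7 of 23. MAP1LC3A differed by 1.13 ± 0.45 (adjusted p = 0.059), MAP1LC3B by 0.51 ± 0.46, GABARAP by -0.31 ± 0.37, GABARAPL1 by 0.03 ± 0.65 and GABARAPL2 by 0.15 ± 0.32. No initiation gene of 9 was called, with BECN1 at -0.08. Of 10 receptors and mitophagy genes 2 fell, led by the mitophagy receptor BNIP3L, which fell by 2.14 (adjusted p = 9.9e-05), and WDFY3, a large autophagy scaffold, fell by 0.74, although its other probe set past the filter was at -0.02 and did not pass. SQSTM1 differed by 0.53 ± 0.46 and did not pass. Of 27 lysosome genes 6 fell and 0 rose (22.2% and 0%, against 19.0% and 22.7% of all genes). After quantile normalization 5 fell and 2 rose. The protease TPP1 fell by 0.93, the cathepsin CTSK by 1.16 and the membrane protein LAMP2 by 0.79, although the 3 other LAMP2 probe sets did not pass. HEXA fell by 0.64, but did not pass after quantile normalization.

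In the insulin and FOXO list 6 of 16 rose and 1 fell (37.5% and 6.25%, against 22.7% and 19.0% of all genes), with FOXO1 up by 1.22 ± 0.26 (adjusted p = 0.0026). FOXO1 read 184, 187 and 282 at 3 days, against 62.1, 71.1 and 111 in the fetus. PRKAB2, a subunit of the energy sensor AMPK, rose by 2.06 (adjusted p = 0.0009), and the insulin receptor substrate IRS1 rose by 1.13 (adjusted p = 0.00091). FOXO3 rose by 0.52, but did not pass after centring on hybridization controls. The kinase AKT1 fell by 0.76 (adjusted p = 0.023), a call lost without fetal replicate 2 or 3-day replicate 2, and its other probe set, at -0.11, did not pass. In the list of glucocorticoid, myostatin and inflammatory regulators 6 of 16 rose and 3 fell (37.5% and 18.75%). KLF9, a glucocorticoid and thyroid hormone target, rose by 3.58 ± 0.25 (adjusted p = 2.9e-06), and FKBP5 rose by 2.35 ± 0.41 (adjusted p = 0.00081). The glucocorticoid receptor NR3C1 fell by 1.57 (adjusted p = 0.00054), as did 2 of its 3 other probe sets, and MSTN fell by 3.23 (adjusted p = 0.0011), while KLF15 differed by 0.58 ± 0.48 and did not pass.

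Of the other wasting genes 4 of 17 rose and 0 fell (23.5% and 0%, against 22.7% and 19.0% of all genes), so the share that rose was near the background. PDK4, the kinase that shuts pyruvate dehydrogenase in fasting, rose by 3.999 ± 0.46 (adjusted p = 6.5e-05), and read 2340.0, 3567 and 5015 at 3 days, against 101, 145 and 490.0 in the fetus. CEBPD, a transcription factor of the acute response, rose by 2.37 (adjusted p = 0.024), a call lost without fetal replicate 1 or 2 or 3-day replicate 3. ATF4, the factor of the integrated stress response, rose by 0.94 and CAPN3 by 0.72, and neither passed after centring on hybridization controls. The CAPN3 call was also lost without fetal replicate 1, and its other probe set, at 0.18, did not pass. Of 3 measured genes tied to TP53INP2, MED1 rose by 0.64 (but did not pass after centring on hybridization controls), NCOA1 fell by 1.28 and THRA, the thyroid hormone receptor alpha, fell by 0.92 (adjusted p = 0.015), a call lost without fetal replicate 2 or 3-day replicate 1. Another THRA probe set was called in the opposite direction, so the direction of THRA is uncertain. MED1, NCOA1 and THRA act with or as nuclear receptors.

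After 3 days few pathway genes were called. For 60 days against 3 days 1.53% of all probe sets were called, and 2 of 128 pathway genes rose and 0 fell (background 0.694% and 0.815% of genes). NR3C1 rose by 1.32 (adjusted p = 0.026) and the muscle protease CAPN3 by 1.12 (adjusted p = 0.021). Both calls were lost without 3-day replicate 1 or without 3-day replicate 2, and the other CAPN3 probe set, at 1.14, did not pass. For 120 days against 3 days 4.40% were called, and 5 pathway genes rose and 2 fell (background 1.98% and 2.79%). The receptor OPTN rose by 1.99 (adjusted p = 0.0088) and ATP6V1B2, a subunit of the proton pump that acidifies lysosomes, fell by 0.96, a call lost when any 1 of 5 of the 6 arrays compared was left out and not made by its other probe set, at -0.51. NR3C1 (1.17), ATF4 (1.09), CAPN3 (0.88) and CDC34 (0.86) also rose and ATG4B fell by 0.57. The CAPN3, CDC34 and ATG4B calls were lost when any 1 of the 6 arrays compared was left out. The ATG4B call was lost under 13 of 23 alternatives. The NR3C1 call was lost without 3-day replicate 1 or 2, or without 120-day replicate 1 or 2. The ATF4 call was lost without any 1 of those arrays or 120-day replicate 3, and after centring on hybridization controls. For 120 days against 60 days limma called 0 of 16166 probe sets, with 1020 at an unadjusted p under 0.05.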

How the data were processed

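Total RNA of 12 longissimus dorsi samples was hybridized to 1-colour Affymetrix porcine arrays. The deposited values are probe set intensity on a linear scale, made by the authors with GCOS 1.4, per the submitters' processing notes. How probe sets were summarized, corrected and scaled is not stated by any source used here. Depth has no meaning for arrays, where the number of arrays limits precision.

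Of 24123 probe sets, 124 controls were left out. A probe set was kept if its value exceeded the 40th percentile of that array on 3 or more arrays, which left 16166. Values were log2(intensity + 21.4), the pseudocount being the 25th percentile of all values, without further normalization. A fold on this scale understates changes of dim genes. The 4 stages were fitted together with limma 3.58.1 (R 4.3.3), and p-values were Benjamini-Hochberg adjusted. The platform annotation gave 10069 probe sets 1 symbol and 198 several, the other 13732 going unnamed, and 9961 matched RefSeq. Each gene outside FBXO32 and TP53INP2 was read from its brightest probe set. The p-values measure the spread between these samples.

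Members and lists were chosen with earlier results of these data known. Named genes were up to 4 called genes per list and comparison by smallest adjusted p, a set of fixed genes, and the 5 genes nearest each member, skipping uncharacterized locus names; GADD45A, WIPI2 and others named for their stage-centred r were chosen after their values were seen. On simulated data, 91 to 95% of probe sets changed 4-fold and 53 to 68% of those changed 2-fold were recovered over 4 comparisons. Alternatives covered pseudocount, filter, normalization, variance trend, replicate block, arrays fitted and leaving out each array.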

Additional observations from a re-analysis of the deposited data

How the results depend on the processing

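Over 42 calls of named genes, 26 held in every fit that left out 1 array, and 0 reversed under any alternative run. Counts of called probe sets without 1 array ranged from 5395 to 7193 for 3 days against 65dpc (6943 with all arrays), 75 to 303 for 60 against 3 days (248), 0 to 5 for 120 against 60 days (0) and 186 to 861 for 120 against 3 days (712). Called pathway genes ranged from 32 to 50 (42), 0 to 4 (2), 0 to 0 (0) and 1 to 8 (7) in the same order. The count for 60 against 3 days was 75 without 3-day replicate 1, 80 without 3-day replicate 2, 91 without 60-day replicate 1, 151 without 120-day replicate 1 and 154 without 120-day replicate 2. For 120 against 3 days it was 323 and 324 without 3-day replicates 1 and 2, and 186, 223 and 435 without 120-day replicates 1, 2 and 3. With the replicate number as a block, 159 probe sets were called for 60 against 3 days and 3 pathway genes for 120 against 3 days. Same-numbered arrays correlated at -0.42 to 0.30 after stage means were removed, over 0.1 in 8 of 18 pairs. Fetal replicate 2 and 60-day replicate 1, numbered differently, correlated at 0.65, so these values cannot show whether the numbers pair the samples. With only the 6 arrays compared, 39 probe sets and 1 pathway gene were called for 60 against 3 days, and 1525 probe sets for 120 against 3 days. Without both arrays that stood apart, an alternative added after seeing the data, these were 111, 1 and 1146. With no filter 1 probe set was called for 120 against 60 days, and hybridization control centring left 4 pathway genes for 120 against 3 days. That centring split the called probe sets into 1260 higher and 5296 lower for 3 days against 65dpc, 65 and 150 for 60 against 3 days, and 185 and 578 for 120 against 3 days. The count of pathway genes with a stage-centred r of 0.8 or more was 17 to 27 without 1 array, 15 after quantile normalization and 32 without both arrays that stood apart. The causes were not tested. TP53INP2 differences without 1 array ranged from 3.16 to 3.52, -1.94 to -1.48, -0.43 to 0.38 and -2.17 to -1.36, in the order of comparisons above.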
